A study of Gorilla gorilla gorilla with 13 samples.

Results

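Sorted neurons (N) were set against apical radial glia (aRG) of gorilla cerebral organoids across all named genes of a count table on the human build hg38. The comparison was chosen by population, not by any measured value, and rests on 6 of the 13 libraries of the series, 2 of N and 4 of aRG. All 13 libraries came from whole-sphere cerebral organoids, self-organising cultures of brain tissue, of 1 gorilla induced pluripotent stem cell line, GC1, at week 8 of culture within 3 days. The labels give no genetic change and no treatment for any of them. N cells were sorted as neurons positive for BCL11B, a transcription factor of deep-layer projection neurons, and aRG cells as apical radial glia. Which antigens marked the aRG gate is not stated in the sources used here. The other 7 libraries, of basal radial glia (bRG, n = 4) and basal intermediate progenitors (bIP, n = 3), entered the fit to share its estimate of the spread. The labels do not say whether libraries of 1 population are separate cultures, so a p-value here measures only library-to-library spread, which may be technical.

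Apical radial glia act as stem cells of the growing cortex. They line the ventricle, hold a polarised apical junction and a long basal process, divide at the ventricular surface and receive Notch, Wnt, FGF and Hedgehog signals. Their neuronal daughters leave the cell cycle, dismantle the apical contact, migrate outwards and build an axon, dendrites, an excitable membrane and synapses. Excitatory neurons of the deep cortical layers are born before those of the upper layers.

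The 2 neuron libraries held 9150566 and 12524938 counts in the hg38 table, and the 4 aRG libraries between 5884697 and 10313114. The first principal component of the 1000 most variable genes held 86.3% of the variance among these 6 libraries, with N at 76.5 and 79.5 and aRG between -47.2 and -31.7. One neuron column carries a number that no neuron label has and is called the unnumbered N library. Of 16804 genes tested, 3320 (19.8%) were called by edgeR's quasi-likelihood test at a Benjamini-Hochberg adjusted p under 0.05. Of all tested genes, 10.4% (1745) were higher and 9.37% (1575) lower in N, and the median log2 fold change over all of them was -0.05. Rises outnumbered falls in this fit, an order that turned in several alternatives, and were smaller: called rises had a median log2 fold change of 1.62 and called falls of -2.52. A log2 fold change of at least 4 was reached by 28 called rises, and one of -4 or less by 309 called falls. The groups did not overlap in 3308 of the 3320 called genes. A call makes such separation likely, and the share without overlap over all tested genes is not given here. Between 1903 and 3003 genes were called when 1 of the 6 libraries was left out, fewest without the unnumbered N library (1903) and without N library 1 (1979), and 4470 when bRG library 3, which stands apart from the other libraries of the series, was left out of the fit. Of the called genes, 755 of 1745 rises and 725 of 1575 falls were called in each of the 6 removals.

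**Figure D1:**
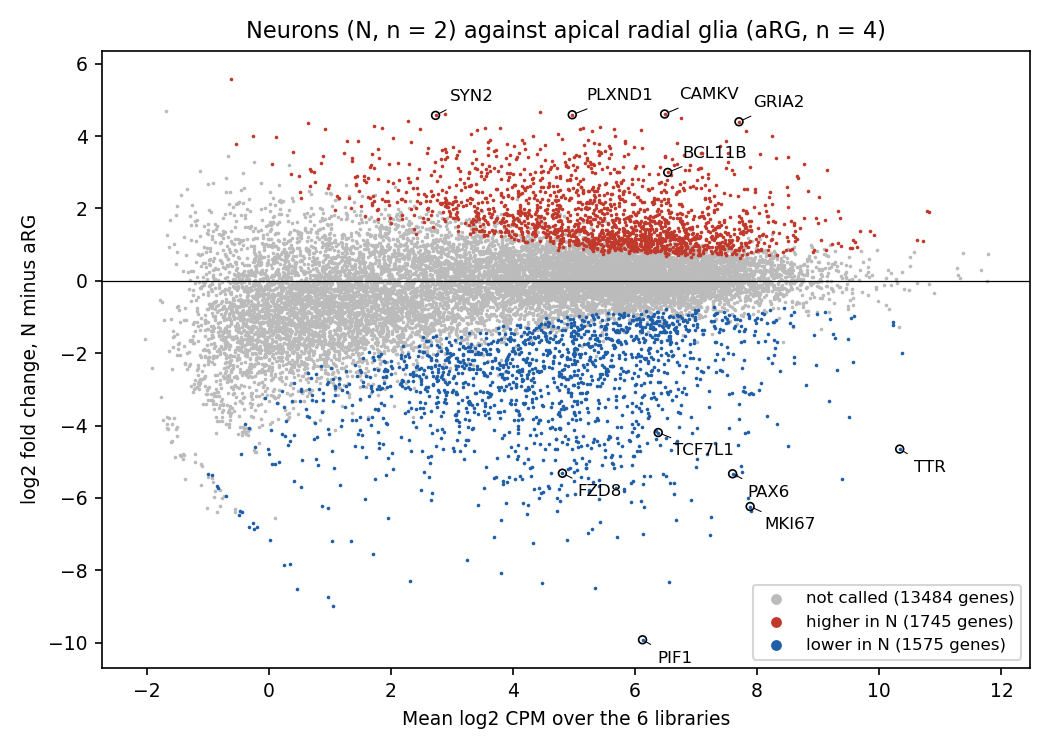
Log2 fold change of N minus aRG (y) against the mean log2 CPM over the 6 libraries (x), 1 point per tested gene, coloured by edgeR call. Called genes numbered 1745 above and 1575 below 0, and the falls reached further from 0 than the rises.

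The labelled cell types were checked first against genes that define them. BCL11B, the antigen of the neuron sort and so not independent of it, measured 489 CPM in N library 1, 271 in the unnumbered N library and 64.0, 52.4, 34.9 and 40.1 in aRG libraries 1 to 4. TBR1, a T-box factor of layer 6 neurons, is not named in the label of the sorted neurons. It measured 411 and 325 CPM in N and 47.0, 31.3, 21.6 and 14.3 CPM in aRG (edgeR adjusted p = 2.22e-06 for a log2 fold change of 3.70, SE 0.385). NEUROD2, a transcription factor of young excitatory neurons, measured 373 and 153 CPM in N and 22.9, 28.7, 16.0 and 9.07 CPM in aRG (log2 fold change 3.79 at an edgeR adjusted p = 2.27e-05). Both neuron libraries lay above all 4 aRG libraries for these 3 genes, and N library 1 was the higher of the pair each time. PAX6, which specifies cortical radial glia, measured 19.7 and 13.7 CPM in N and 889, 672, 532 and 598 CPM in aRG (edgeR adjusted p = 1.34e-07 for a log2 fold change of -5.33, SE 0.392), and SOX2, a stem cell transcription factor, 12.4 and 4.20 CPM in N and 643, 424, 239.7 and 266 CPM in aRG (log2 fold change -5.58 at an edgeR adjusted p = 2.88e-06). MKI67, a protein of dividing cells, measured 12.0 and 15.0 CPM in N and 1404, 876, 668 and 1137 CPM in aRG (log2 fold change -6.24 at an edgeR adjusted p = 5.48e-07). No aRG library came near the neuron level in any of these 3 genes. Since the full set of sort antigens is not stated, whether any of these genes besides BCL11B served in a gate is not known.

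Among the markers set for the comparison, PLXND1, a semaphorin receptor, measured 258 CPM in N library 1, 268 in the unnumbered N library and 14.8, 13.3, 8.52 and 7.53 in aRG libraries 1 to 4 (edgeR adjusted p = 1.14e-07 for a log2 fold change of 4.59, SE 0.299). SYN2, a synaptic vesicle phosphoprotein, measured 56.9 and 59.5 CPM in N and 1.63, 5.57, 0.957 and 1.75 CPM in aRG (edgeR adjusted p = 1.17e-05 for a log2 fold change of 4.57, SE 0.562). The neuron libraries were close to each other for both genes and were separated from every aRG library. FZD8, a Wnt receptor, measured 4.66 and 0.840 CPM in N and 149.8, 146, 52.8 and 80.3 CPM in aRG (edgeR adjusted p = 1.83e-05 for a log2 fold change of -5.32, SE 0.682), and TCF7L1, a repressor of Wnt target genes, 16.2 and 8.49 CPM in N and 315, 184, 194 and 206 CPM in aRG (edgeR adjusted p = 1.19e-06 for a log2 fold change of -4.19, SE 0.411). Both were low in the 2 neuron libraries and higher in each aRG library. HES5, a Notch effector of radial glia, measured 1.59 and 3.73 CPM in N and 16.3, 18.7, 21.3 and 23.4 CPM in aRG (log2 fold change -2.88 at an edgeR adjusted p = 0.000523), and EOMES, a transcription factor of intermediate progenitors, 6.74 and 5.78 CPM in N and 245, 158, 39.9 and 129 CPM in aRG (log2 fold change -4.51 at an edgeR adjusted p = 0.000107). EOMES is not a radial glia gene, yet each aRG library lay above both neuron libraries, with aRG library 3 the lowest of the 4.

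**Figure D2:**
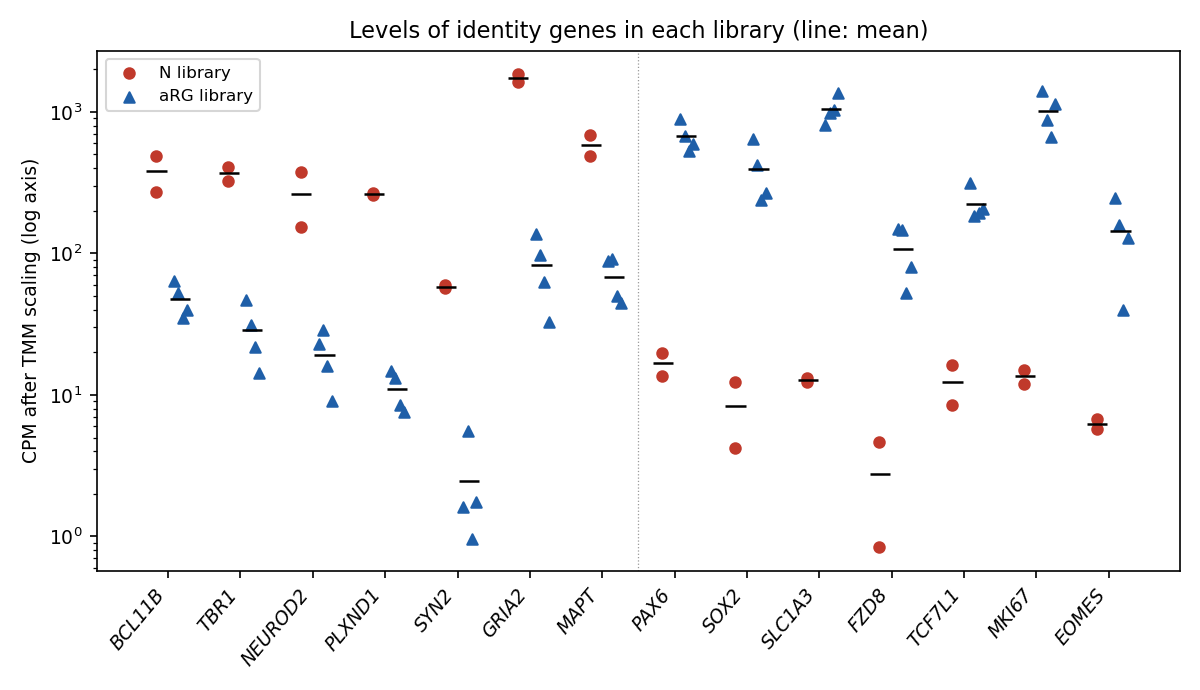
CPM after TMM scaling (log axis) of 14 identity genes in each N library (circles) and aRG library (triangles), with the mean of each group as a line. The 2 groups do not overlap in any of the 14 genes, with N higher in the 7 on the left and lower in the 7 on the right.

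The 12 largest rises (called, without overlap of the groups, and averaging 4 or more in log2 CPM) included genes of the synapse and the excitable membrane. SPHKAP, an anchor of protein kinase A at membrane contact sites of neurons, had the largest (4.68), and measured 192 and 289.6 CPM in N and 23.1, 4.42, 9.29 and 1.65 CPM in aRG. Its level varied widely among the aRG libraries, and both neuron libraries lay above them all. CAMKV, a kinase-like protein of dendritic spines, measured 760.2 and 794 CPM in N and 46.3, 38.0, 19.1 and 24.6 CPM in aRG (log2 fold change 4.61 at an edgeR adjusted p = 2.61e-07). CACNA1E, the pore of the R-type calcium channel, measured 787 and 978 CPM in N and 48.2, 48.1, 32.9 and 26.9 CPM in aRG (log2 fold change 4.50 at an edgeR adjusted p = 1.26e-07), and GRIA2, the AMPA receptor subunit that limits calcium entry, 1614 and 1840.2 CPM in N and 137, 96.6, 62.5 and 32.7 CPM in aRG (log2 fold change 4.39 at an edgeR adjusted p = 1.21e-06). ARPP21, a phosphoprotein that binds calmodulin, the voltage-gated potassium channel gene KCNH3, UNC79 of the NALCN leak channel complex, the potassium-dependent sodium and calcium exchanger SLC24A2 and the synaptic adhesion gene SLITRK1 rose by 4.25, 4.23, 4.18, 4.18 and 4.17. RUNX1T1, a transcriptional corepressor, measured 1628 and 1782 CPM in N and 163, 129, 52.1 and 42.4 CPM in aRG (log2 fold change 4.15 at an edgeR adjusted p = 2.1e-06), and SLA, an adaptor of receptor signalling, rose by 4.14. In GRIA2, CAMKV, KCNH3, RUNX1T1, PLXND1, CACNA1E, ARPP21 and SLC24A2, aRG libraries 1 and 2 were above libraries 3 and 4. That order did not hold in SPHKAP, UNC79, SLITRK1 and SLA. In bulk libraries a difference in the share of cells that carry a transcript and one in the amount per cell cannot be told apart.

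The 12 largest falls, by the same rule, included mitotic kinesins, checkpoint kinases and kinetochore genes. PIF1, a DNA helicase, held 12 counts in the 2 neuron libraries together and measured 0.858 and 0.466 CPM in N and 881, 550.1, 558 and 558 CPM in aRG (edgeR adjusted p = 5.41e-05 for a log2 fold change of -9.92, SE 1.42). The mitotic kinesins KIF20A (-8.49), KIFC1 (-8.35) and KIF18B (-7.07) fell, as did TROAP, a spindle-associated protein (-8.33), PBK, a mitotic kinase (-7.25), and CDC25C, the phosphatase that triggers entry into mitosis (-7.17). NUF2 of the outer kinetochore (-7.02), GTSE1, a microtubule-binding regulator of G2 (-7.00), the checkpoint kinase BUB1B (-6.98), the replication factor FAM111A (-6.85) and HJURP, the chaperone that loads centromeric histone (-6.66), completed the set. NUF2 measured 6.86 and 5.04 CPM in N and 844, 522, 618 and 1096 CPM in aRG, and TROAP 2.08 and 1.87 CPM in N and 543, 541, 471 and 1001 CPM in aRG. In these genes both neuron libraries were near 0 and every aRG library was far above them.

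Beside the largest changes, markers, identity genes and pairs, genes were named from 42 lists of 1165 genes. Of these 1165, 1135 are in the hg38 table and 1121 were tested. Each list count below stands beside the shares over all tested genes, 10.4% higher and 9.37% lower in N. Where a list had no edgeR call in 1 direction, 0 to 2 of its genes had an unadjusted p under 0.05 that way, DESeq2 called 0 or 1 and limma 0 to 2. Genes of mitosis and of S phase mostly fell. For G2 and M phase, of 42 tested genes, 40 fell and 0 rose (median log2 fold change -5.41). Summed over the list, the level was 534 and 547 CPM in the N libraries and 14021, 9044, 9025 and 16921 CPM in aRG libraries 1 to 4, so that aRG libraries 1 and 4 were the highest. BUB1, a spindle checkpoint kinase, measured 3.97 ± 0.587 CPM in N against 303 ± 108 in aRG, ASPM, the spindle-pole protein whose loss causes microcephaly, 7.53 ± 0.428 CPM in N against 694 ± 238 in aRG, and MKI67 13.5 ± 2.13 CPM in N against 1021 ± 319 in aRG (SD, n = 2 and 4). For S phase, of 42 tested genes, 37 fell and 0 rose (median log2 fold change -2.51), among them CDC45 of the replicative helicase (-5.88), the replication initiator MCM10 (-4.61) and the fork checkpoint mediator CLSPN (-4.86). The S phase falls were smaller than those of G2 and M phase in the median. For G1 cyclins and inhibitors of cyclin-dependent kinases, of 22 tested genes, 8 fell and 1 rose (median log2 fold change -1.07). E2F2, a transcription factor of S phase entry, CDK6 and CCND1, the kinase and cyclin of the G1 restriction point, fell by 5.41, 3.68 and 2.01 on the log2 scale. The inhibitor CDKN2D rose (1.84), and its call ended without aRG library 1, 3 or 4 or either N library (edgeR adjusted p of 0.0596 to 0.145). The inhibitor CDKN1A went the other way (log2 fold change -2.21 at an edgeR adjusted p = 0.00226), a call that ended without N library 1 (edgeR adjusted p = 0.0638). The number of G1 rises was 0 without aRG library 1, 3 or 4 or either N library. The number of G1 falls was 5 without N library 1.

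**Figure D3:**
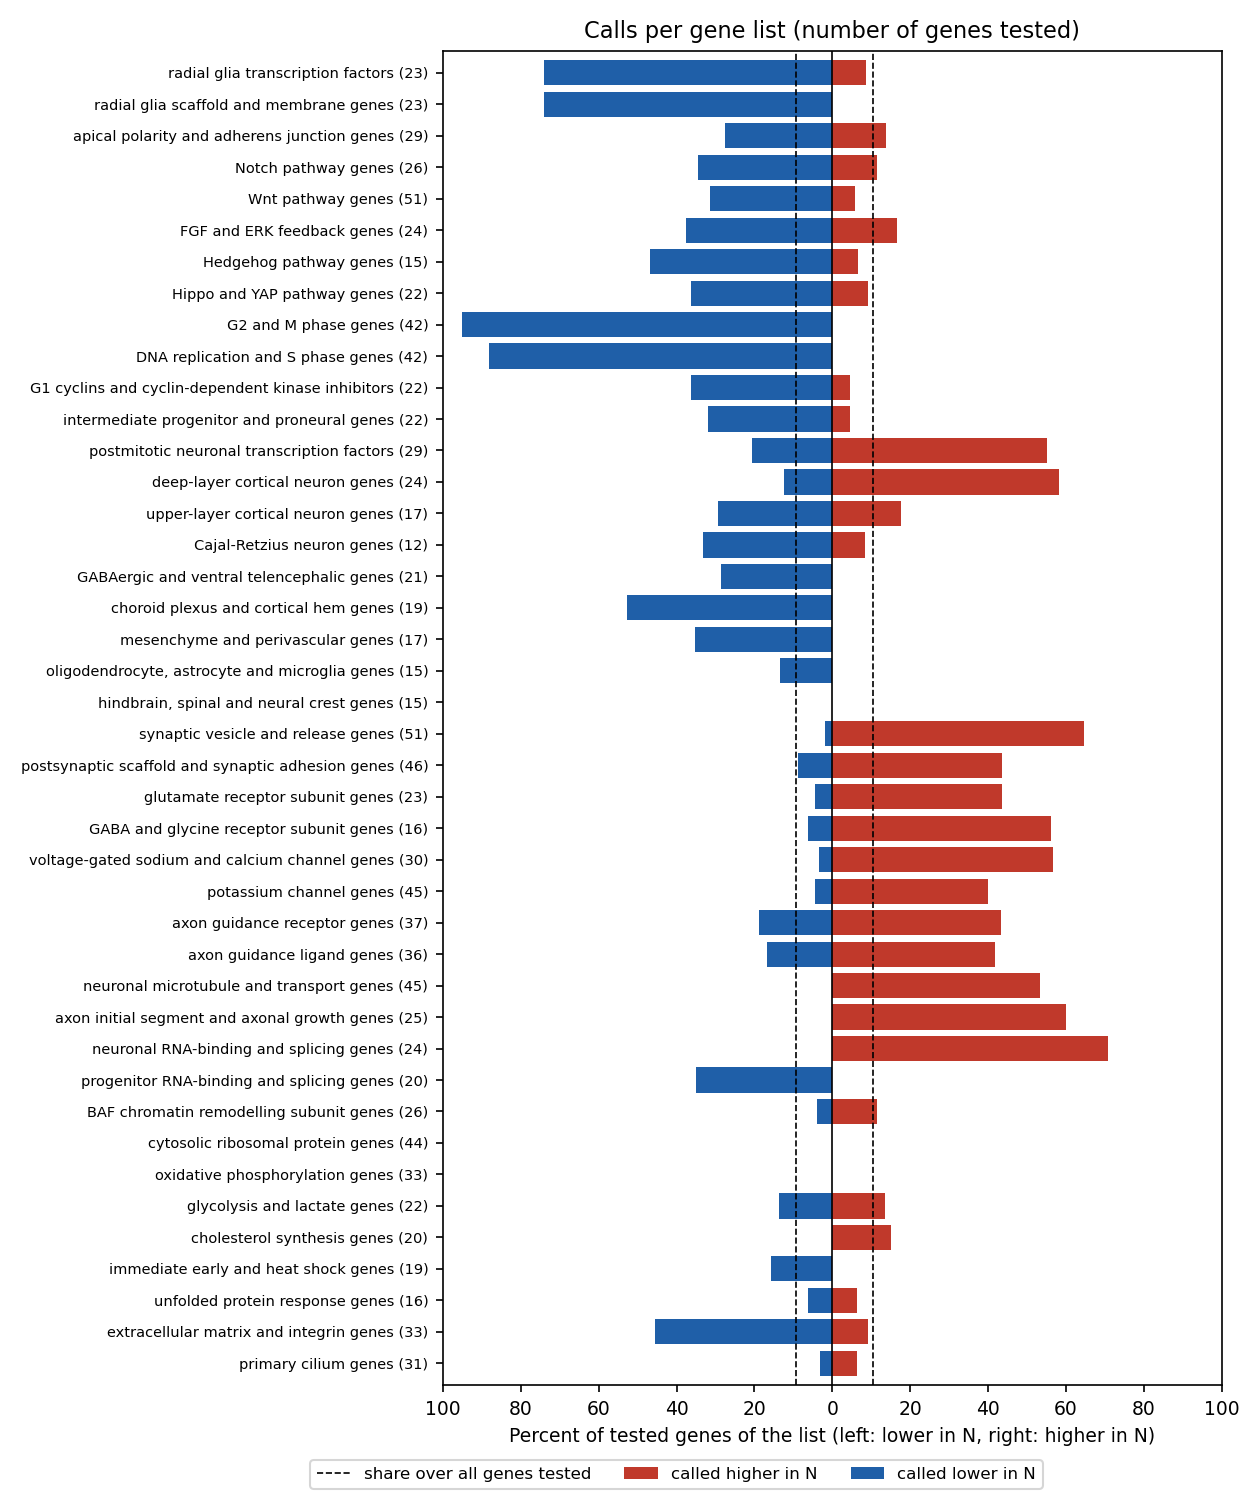
Percent of the tested genes of each of 42 gene lists called higher (right) or lower (left) in N by edgeR, with the number tested in brackets. Dashed lines mark the share over all genes tested, 10.4% higher and 9.37% lower; cell division and radial glia lists extend furthest to the left and synapse, axon and neuronal RNA-binding lists to the right.

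Radial glia identity genes mostly fell, with 1 family divided. Among transcription factors of radial glia, of 23 tested genes, 17 fell and 2 rose (median log2 fold change -2.88), against the 9.37% of all tested genes that fell. SALL1 (-5.40), a zinc finger factor of progenitors, and HES1 (-5.64), the Notch effector that keeps progenitors undifferentiated, fell beside PAX6 and SOX2. ID proteins, which block the DNA binding of proneural factors, went in both directions. ID4 measured 16.1 and 16.0 CPM in N and 487, 473, 312 and 499 CPM in aRG (edgeR adjusted p = 5.47e-07 for a log2 fold change of -4.78, SE 0.430), and ID1 (-3.60) and ID3 (-2.61) fell too. ID2 measured 293 and 668 CPM in N and 36.1, 45.0, 69.4 and 53.8 CPM in aRG (edgeR adjusted p = 2.33e-05 for a log2 fold change of 3.23, SE 0.424), with both neuron libraries above every aRG library. The number of radial glia factor rises was 1 without aRG library 3 or either N library. The calls of ID1 and ID3 ended without N library 1 (edgeR adjusted p of 0.0908 to 0.102).

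Genes of the radial glia body and membrane fell as a group: of 23 tested genes, 17 fell and 0 rose (median log2 fold change -3.41). SLC1A3, a glial glutamate transporter, measured 12.3 and 13.2 CPM in N and 811, 979, 1036 and 1363 CPM in aRG (edgeR adjusted p = 1.26e-07 for a log2 fold change of -6.36, SE 0.462). The secreted growth factor PTN (-5.46) fell, as did the intermediate filament genes NES (-5.46) and VIM (-3.41), the apical membrane gene PROM1 (-5.77) and HOPX, a gene often used to mark basal radial glia (-5.10). The number of scaffold rises was 1 without aRG library 1 or 2.

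Apical junction genes gave more falls than rises. Of the 29 tested genes of the polarity and adherens junction list, 8 fell and 4 rose (median log2 fold change -0.39). The falls made up 27.6%, against 9.37% of all tested genes. The rises made up 13.8%, near the 10.4% of all tested genes. CRB1, a determinant of the apical membrane (-3.65), TJP1, a scaffold of tight junctions (-2.45), SHROOM3, which drives apical constriction (-2.83), and the polarity scaffold PARD3 (-3.18) fell. The atypical protein kinase C genes PRKCZ (log2 fold change 1.40 at an edgeR adjusted p = 0.00524) and PRKCI (log2 fold change 0.94 at an edgeR adjusted p = 0.0243), kinases of the same polarity complex, were higher in N. The call of PRKCZ ended without the unnumbered N library (edgeR adjusted p = 0.0529) and that of PRKCI without aRG library 2 or 4 or either N library (edgeR adjusted p of 0.0674 to 0.214). AFDN, which links nectins to actin, rose by 0.84, and its call ended without aRG library 2 or 3 or either N library (edgeR adjusted p of 0.0538 to 0.151). The number of junction rises was 0 without the unnumbered N library, was 1 without aRG library 2 or N library 1 and was 2 without aRG library 4. The number of junction falls was 5 without the unnumbered N library. Of the 31 tested genes of the primary cilium list, 2 rose and 1 fell (median log2 fold change 0.26). These shares, 6.45% and 3.23%, were below those over all tested genes. KIF3A, a motor of ciliary transport that also carries axonal cargo, rose (log2 fold change 1.34 at an edgeR adjusted p = 0.000674). IFT140 of the ciliary transport train rose by 0.90, and its call ended without aRG library 4 or either N library (edgeR adjusted p of 0.0502 to 0.172). The number of cilium rises was 1 without aRG library 4 or either N library.

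Of the 26 tested genes of the Notch pathway, 9 fell and 3 rose (median log2 fold change -0.89). The receptors NOTCH1 (-3.05), NOTCH2 (-3.09) and NOTCH3 (-4.05), the glycosyltransferase LFNG (-3.43) and the effectors HES1 and HES5 fell. NOTCH3 measured 18.4 and 14.0 CPM in N and 255, 316, 222 and 281 CPM in aRG. The ligand JAG1 fell, at 28.7 and 32.2 CPM in N and 55.3, 57.9, 80.9 and 89.7 CPM in aRG (log2 fold change -1.22 at an edgeR adjusted p = 0.0288), a call that ended without aRG library 3 or 4 or either N library (edgeR adjusted p of 0.0503 to 0.192). The ligand JAG2 rose, at 319 and 223 CPM in N and 53.8, 72.4, 64.2 and 36.0 CPM in aRG (edgeR adjusted p = 9.74e-06 for a log2 fold change of 2.26, SE 0.273), and lay above every aRG library in both neuron libraries. DTX1, a ubiquitin ligase of the Notch pathway, rose by 2.18. NUMBL, an inhibitor of Notch receptors, rose by 1.31, and its call ended without aRG library 1, 3 or 4 or either N library (edgeR adjusted p of 0.0504 to 0.392).

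Of the 51 tested genes of the Wnt pathway, 16 fell and 3 rose (median log2 fold change -0.85). The falls made up 31.4%, against 9.37% of all tested genes. Of the receptors, FZD2 (-3.20) and FZD7 (-1.53) fell beside FZD8, and others of the list were not called, such as LRP5 (log2 fold change -0.09 at an edgeR adjusted p = 0.897), a coreceptor. The secreted antagonist SFRP1 measured 20.7 and 14.6 CPM in N and 1065, 494, 492 and 846 CPM in aRG (log2 fold change -5.36 at an edgeR adjusted p = 3.68e-06), and the antagonist WIF1 (-4.69) and the enhancers RSPO1 (-3.07) and RSPO2 (-3.81) fell too. The ligands WNT5A (-1.52) and WNT8B (-3.75) were lower in N. The 3 rises made up 5.88%, below the 10.4% of all tested genes that rose. APC2 of the destruction complex rose by 1.43, a call that ended without aRG library 1, 3 or 4 or N library 1 (edgeR adjusted p of 0.0518 to 0.265). DVL1, the adaptor of Frizzled receptors, rose by 1.44, a call that ended without aRG library 1, 3 or 4 or either N library (edgeR adjusted p of 0.05 to 0.319). GSK3B, the kinase of the complex, rose by 0.72, a call that ended without aRG library 1, 2, 3 or 4 or either N library (edgeR adjusted p of 0.0595 to 0.236). The number of Wnt rises was 0 without aRG library 1, 3 or 4 or N library 1 and was 1 without the unnumbered N library. The number of Wnt falls was 7 without N library 1. RSPO1, RSPO2 and WNT8B are also genes of the cortical hem, described further on. The calls of FZD7, RSPO1 and WNT5A ended without N library 1 (edgeR adjusted p of 0.122 to 0.178).

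Of the 24 tested genes of the FGF and ERK feedback list, 9 fell and 4 rose (median log2 fold change -0.76). The receptors FGFR1 (-3.11), FGFR2 (-2.48) and FGFR3 (-2.88) fell, as did the ligand FGF2 (-3.36), the feedback inhibitor SPRY1 (-2.55) and ETV5, a transcription factor induced by FGF signals, at 1.23 and 1.87 CPM in N and 75.0, 168, 50.4 and 64.2 CPM in aRG (edgeR adjusted p = 7.85e-06 for a log2 fold change of -5.82, SE 0.689). FGF8, a ligand of the anterior patterning centre, had 0 counts in both neuron libraries and 142 in the 4 aRG libraries, at least 27.3-fold lower in N when 3 counts over the neuron libraries are taken as the floor. FGFR4 measured 39.5 and 26.7 CPM in N and 6.14, 17.3, 8.71 and 9.69 CPM in aRG (log2 fold change 1.66 at an edgeR adjusted p = 0.0104), and rose where the other 3 receptors fell, a call that ended without N library 1 (edgeR adjusted p = 0.14). FGF18, a secreted ligand, rose by 2.34, a call that ended without N library 1 (edgeR adjusted p = 0.0648). FGF12, an intracellular member that binds sodium channels, rose by 2.00, a call that ended without the unnumbered N library (edgeR adjusted p = 0.0906). The number of FGF rises was 1 without N library 1 and was 2 without the unnumbered N library. The call of FGF2 ended without N library 1 (edgeR adjusted p = 0.0694). The call of SPRY1 ended without the unnumbered N library (edgeR adjusted p = 0.055). The call of FGF8 ended without either N library (edgeR adjusted p of 0.0883 to 0.109).

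Of the 15 tested genes of the Hedgehog pathway, 7 fell and 1 rose (median log2 fold change -1.75). The transcription factors GLI2 (-2.96) and GLI3 (-4.16), the signal transducer SMO (-2.37), and the coreceptors BOC (-2.33) and GAS1 (-4.05) fell. The receptor PTCH1, which holds the pathway off until a ligand binds, measured 9.80 and 9.14 CPM in N and 45.2, 58.9, 42.8 and 35.6 CPM in aRG (edgeR adjusted p = 0.000432 for a log2 fold change of -2.27, SE 0.400). Both neuron libraries lay below every aRG library. Of the 22 tested genes of the Hippo pathway, 8 fell and 2 rose (median log2 fold change -0.89). The coactivator YAP1 (-3.84) and its partner TEAD2 (-2.69) fell, and so did the upstream kinase STK3 (-2.88), which inhibits YAP1. The giant cadherins divided: FAT1 measured 12.9 and 11.8 CPM in N and 190.4, 219, 274 and 309 CPM in aRG (edgeR adjusted p = 4.86e-06 for a log2 fold change of -4.33, SE 0.491) and FAT4 442 and 579.5 CPM in N and 137, 111, 181 and 222 CPM in aRG (edgeR adjusted p = 0.00622 for a log2 fold change of 1.65, SE 0.400). The call of FAT4 ended without the unnumbered N library (edgeR adjusted p = 0.0806). WWC1, an activator of the kinases, rose by 1.13, a call that ended without aRG library 2, 3 or 4 or N library 1 (edgeR adjusted p of 0.0514 to 0.288). The number of Hippo rises was 1 without aRG library 2, 3 or 4 or either N library.

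Matrix and integrin genes gave more falls than rises: of 33 tested genes, 15 fell and 3 rose (median log2 fold change -1.41). The laminins LAMB2 (-4.49) and LAMA1 (-4.26), components of the basement membrane, fell, with SPARC (-5.12), COL11A1 (-4.20) and the integrin subunit ITGA6 (-4.58). Lecticans, the chondroitin sulphate proteoglycans of brain matrix, went in both directions. BCAN measured 11.2 and 4.48 CPM in N and 306, 379, 209 and 361 CPM in aRG (edgeR adjusted p = 6.64e-07 for a log2 fold change of -5.34, SE 0.493), and VCAN also fell (-2.25), while NCAN measured 891 and 898 CPM in N and 363, 465, 397 and 410.1 CPM in aRG (edgeR adjusted p = 0.00115 for a log2 fold change of 1.13, SE 0.223). Tenascins did likewise: TNC fell (-3.52) and TNR rose (2.65), with TNR at 124 and 169 CPM in N and 22.9, 26.0, 28.7 and 15.8 CPM in aRG (log2 fold change 2.65 at an edgeR adjusted p = 0.00132). The integrin subunit ITGA9 rose by 1.58, a call that ended without aRG library 4 or either N library (edgeR adjusted p of 0.0528 to 0.115).

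Proneural and intermediate progenitor genes gave more falls than rises: of 22 tested genes, 7 fell and 1 rose (median log2 fold change -0.79). TFAP2C, a transcription factor of basal progenitors, held 5 counts in the 2 neuron libraries and measured 0.490 and 0.0933 CPM in N and 56.5, 73.1, 89.4 and 87.5 CPM in aRG (edgeR adjusted p = 1.26e-07 for a log2 fold change of -8.07, SE 0.548). The proneural factor NEUROD4 (-4.47) and RASGRP1, a Ras activator (-2.51), fell. SSTR2, a somatostatin receptor, rose (217 ± 33.5 CPM in N against 47.7 ± 15.5 in aRG; log2 fold change 2.19 at an edgeR adjusted p = 3.54e-05). The number of intermediate progenitor rises was 3 without aRG library 2.

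Transcription factors of postmitotic neurons rose more often than all genes did: of 29 tested genes, 16 rose and 6 fell (median log2 fold change 1.09), against 10.4% of all tested genes that rose. NEUROD6, a factor of excitatory cortical neurons, measured 1455 and 1608 CPM in N and 129, 128, 161 and 163 CPM in aRG (edgeR adjusted p = 2.68e-07 for a log2 fold change of 3.40, SE 0.282), and MYT1L, a repressor of non-neuronal genes, 1084 and 1266 CPM in N and 148, 83.6, 57.4 and 35.2 CPM in aRG (edgeR adjusted p = 2.55e-06 for a log2 fold change of 3.86, SE 0.408). LMO3 (2.59), SCRT2 (2.10) and KLF7 (1.47) rose as well. ZEB2 and ZEB1, related repressors of epithelial genes, were called in opposite directions. ZEB2 measured 519 and 618 CPM in N and 117, 144, 85.3 and 96.2 CPM in aRG (edgeR adjusted p = 5.46e-06 for a log2 fold change of 2.36, SE 0.271) and ZEB1 62.6 and 48.2 CPM in N and 408, 343, 223 and 279 CPM in aRG (edgeR adjusted p = 5.4e-05 for a log2 fold change of -2.50, SE 0.356). DACH1 (-4.49), a factor also found in cortical progenitors, and RORA (-3.10), a nuclear receptor, fell. The number of neuronal factor rises was 9 without N library 1. The number of neuronal factor falls was 3 without either N library.

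Genes of deep-layer neurons gave more rises than falls, and those of upper-layer neurons were called in both directions. Of the 24 tested genes of the deep-layer list, 14 rose and 3 fell (median log2 fold change 1.90). These were 58.3% and 12.5%, against 10.4% and 9.37% of all tested genes. BCL11B, the antigen of the neuron sort, is among these rises, so the count for this list is not independent of the sort. SLA, TBR1 and BCL11B are given above, and ST18, a zinc finger factor (2.78), the kainate receptor gene GRIK3 (3.74), SOX5 (2.13), BCL11A (1.94) and ZFPM2 (1.92), factors of corticofugal neurons, rose. FEZF2, the selector of subcerebral projection neurons that radial glia also express, measured 364 and 195 CPM in N and 196, 137, 101 and 108 CPM in aRG (log2 fold change 1.04 at an edgeR adjusted p = 0.0265). Its groups overlapped, since the unnumbered N library lay below aRG library 1, and its call ended without aRG library 2, 3 or 4 or N library 1 (edgeR adjusted p of 0.0506 to 0.46). FOXP1 (-1.49) and FOXP2 (-2.25), forkhead factors of deep-layer neurons, and ETV1 (-1.27), a layer 5 factor and a target of FGF signals, were lower in N. The call of FOXP1 ended without the unnumbered N library (edgeR adjusted p = 0.0532) and that of ETV1 without aRG library 1 or 3 or either N library (edgeR adjusted p of 0.0541 to 0.193). The number of deep-layer falls was 1 without the unnumbered N library. Of the 17 tested genes of the upper-layer list, 5 fell and 3 rose (median log2 fold change -0.87). Both shares, 29.4% and 17.6%, were above those over all tested genes. POU3F3 (-2.43) and POU3F2 (-2.38), POU factors of progenitors and upper-layer neurons, fell, and PLXND1 and CACNA1E, described above, were 2 of the rises. The call of POU3F2 ended without N library 1 (edgeR adjusted p = 0.0541). INHBA, an activin subunit, rose by 2.03, a call that ended without aRG library 1, 3 or 4 or either N library (edgeR adjusted p of 0.0673 to 0.184). The number of upper-layer falls was 3 without the unnumbered N library, and the rises numbered 2 to 3 over the single removals.

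Genes of the presynaptic terminal rose together: of the 51 tested genes of the synaptic vesicle and release list, 33 rose and 1 fell (median log2 fold change 1.84). The summed level of the list was 8976 and 9416 CPM in the N libraries and 3646, 3352, 3142 and 3029 CPM in aRG libraries 1 to 4. SLC17A7, the vesicular glutamate transporter VGLUT1, measured 304 and 236 CPM in N and 31.3, 24.1, 14.9 and 15.1 CPM in aRG (edgeR adjusted p = 4.83e-06 for a log2 fold change of 3.67, SE 0.415), and SNAP25, a fusion protein, 134 and 252 CPM in N and 34.0, 14.4, 16.0 and 26.9 CPM in aRG (log2 fold change 3.08 at an edgeR adjusted p = 1.29e-05). The calcium sensor SYT1 (2.31), the priming factor UNC13A (3.54), the active zone scaffolds PCLO (3.05) and BSN (2.42), RAB3A (2.64) and CPLX2 (2.49) rose. VAMP1, a vesicle fusion protein, was the single fall (log2 fold change -1.25 at an edgeR adjusted p = 0.03), a call that ended without aRG library 3 or 4 or either N library (edgeR adjusted p of 0.0542 to 0.234). The number of vesicle falls was 0 without aRG library 3 or 4 or either N library.

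Of the 46 tested genes of the postsynaptic scaffold and adhesion list, 20 rose and 4 fell (median log2 fold change 1.09). CAMK2B, a kinase of the postsynaptic density (3.81), the adhesion genes CNTNAP2 (3.23) and CNTN1 (3.58) and the scaffolds SHANK1 (2.41) and SHANK2 (2.78) rose. Neurexins, presynaptic organisers, divided. NRXN2 rose (2.26), while NRXN3 measured 38.4 and 48.5 CPM in N and 134, 97.5, 201 and 149.6 CPM in aRG (edgeR adjusted p = 0.00128 for a log2 fold change of -1.74, SE 0.348). SLITRK1 (4.17) and SLITRK5 (-2.06), and the contactins CNTN1 and CNTN4 (-2.61), were likewise called in opposite directions. The call of NRXN2 ended without N library 1 (edgeR adjusted p = 0.123).

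Receptor genes for both fast transmitters gave more rises than falls. Of the 23 tested genes of the glutamate receptor list, 10 rose and 1 fell (median log2 fold change 0.81). Beside GRIA2, the AMPA subunit GRIA1 (3.06), the NMDA subunits GRIN1 (3.15) and GRIN2B (2.46), the kainate subunit GRIK3 and the metabotropic receptor GRM5 (3.52) rose. GRM8, another metabotropic receptor, fell by 2.81 on the log2 scale, and its call ended without the unnumbered N library (edgeR adjusted p = 0.0967). The number of glutamate receptor falls was 0 without the unnumbered N library. Of the 16 tested genes of the GABA and glycine receptor list, 9 rose and 1 fell (median log2 fold change 1.75). GPHN, the scaffold of inhibitory synapses (1.79), GABRA2 (2.28) and GABBR2 (3.27) rose. GABRG1, a gamma subunit, was the single fall, at 2.08 and 2.15 CPM in N and 26.2, 19.4, 44.6 and 73.3 CPM in aRG (edgeR adjusted p = 0.000139 for a log2 fold change of -4.27, SE 0.669).

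Of the 30 tested genes of the sodium and calcium channel list, 17 rose and 1 fell (median log2 fold change 1.42). The sodium channels SCN2A (3.86) and SCN3A (1.90), the auxiliary subunit SCN3B (3.46) and the calcium channels CACNA1C (2.98), CACNA1G (2.68) and CACNA1B (3.09) rose. SCN2A measured 329 and 369 CPM in N and 31.3, 32.0, 17.3 and 16.3 CPM in aRG (edgeR adjusted p = 2.68e-07 for a log2 fold change of 3.86, SE 0.317). SCN1A, a sodium channel of mature and inhibitory neurons, was the single fall, at 12.1 and 17.9 CPM in N and 77.0, 95.1, 44.2 and 60.3 CPM in aRG (edgeR adjusted p = 0.000189 for a log2 fold change of -2.20, SE 0.356). The number of channel falls was 2 without N library 1. Of the 45 tested genes of the potassium channel list, 18 rose and 2 fell (median log2 fold change 1.30). Inward rectifiers divided. KCNJ6 (2.68) and KCNJ3 (3.66), which are opened by G proteins and form a channel together, rose, and KCNJ10, the glial inward rectifier, measured 1.47 and 2.05 CPM in N and 78.4, 51.7, 56.7 and 67.8 CPM in aRG (edgeR adjusted p = 6.93e-07 for a log2 fold change of -5.15, SE 0.478). The ether-a-go-go family member KCNH3 rose as given above and KCNH7 by 2.23, while KCNH1 fell by 2.91, a call that ended without either N library (edgeR adjusted p of 0.0505 to 0.147). The number of potassium channel falls was 1 without either N library.

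Of the 37 tested genes of the axon guidance receptor list, 16 rose and 7 fell (median log2 fold change 0.95). DCC (2.94) and NEO1 (2.50), receptors of netrins, UNC5A (3.54), and DSCAML1, an adhesion molecule (4.00), rose. The plexins PLXNA1 (1.44), PLXNA2 (2.10) and PLXNA4 (1.74) rose with PLXND1, and NRP1, the semaphorin coreceptor, fell, at 28.1 and 24.7 CPM in N and 138, 106, 97.0 and 122 CPM in aRG (edgeR adjusted p = 6.65e-05 for a log2 fold change of -2.13, SE 0.311). Ephrin receptors divided: EPHB1 (2.80), EPHB6 (3.25), EPHA5 (2.04) and EPHA7 (2.46) rose, and EPHA2 (-4.34) and EPHA3 (-2.73) fell. EPHA2 measured 2.82 and 1.03 CPM in N and 52.4, 38.8, 32.6 and 30.1 CPM in aRG. The number of guidance receptor falls was 4 without either N library. Of the 36 tested genes of the guidance ligand list, 15 rose and 6 fell (median log2 fold change 0.79). SLIT1, a repellent (3.52), DRAXIN, a repellent that binds netrin receptors (3.07), the semaphorins SEMA4A (3.39) and SEMA6D (1.70) and NTN1 (1.70) rose. EFNA4 (-3.87), an ephrin, and RGMA (-2.29), a ligand of NEO1, fell. SEMA5B fell by 1.03, a call that ended without either N library (edgeR adjusted p of 0.0836 to 0.104). The number of guidance ligand rises was 9 without either N library. The number of guidance ligand falls was 3 without either N library.

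Cytoskeletal genes of the axon gave rises and no falls by edgeR, and DESeq2 called 1 fall in the microtubule list. Of the 45 tested genes of the microtubule and transport list, 24 rose and 0 fell (median log2 fold change 1.14). MAPT, which encodes tau, measured 688 and 487 CPM in N and 88.5, 90.9, 49.8 and 44.7 CPM in aRG (edgeR adjusted p = 1.58e-06 for a log2 fold change of 3.10, SE 0.312). CDK5R1, the activator of the kinase CDK5 (2.70), the dynein chain DYNC1I1 (2.99), STMN2 of the growth cone (2.54) and KIF21B, a dendritic kinesin (2.65), rose. MAP2, the dendritic microtubule protein, rose by 1.14, a call that ended without the unnumbered N library (edgeR adjusted p = 0.0703). Of the 25 tested genes of the axon initial segment and axonal growth list, 15 rose and 0 fell (median log2 fold change 1.56). ANK3, the master scaffold of the initial segment, measured 438 and 401 CPM in N and 89.6, 79.1, 58.0 and 48.8 CPM in aRG (edgeR adjusted p = 1.9e-06 for a log2 fold change of 2.61, SE 0.267), and NFASC (3.41), NRCAM (2.83), SHTN1, which polarises the axon (3.44), NCAM2 (3.12) and GAP43 of the growth cone (2.44) rose.

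RNA-binding proteins changed by type. Of the 24 tested genes of the neuronal RNA-binding and splicing list, 17 rose and 0 fell (median log2 fold change 1.83). SRRM4, the regulator of neuronal microexons, measured 885 and 732 CPM in N and 144, 125, 54.3 and 52.8 CPM in aRG (edgeR adjusted p = 2.8e-05 for a log2 fold change of 3.11, SE 0.416), and RBFOX1 (2.60), RBFOX2 (2.37), RBFOX3, known as NeuN (2.51), CELF4 (2.94) and CPEB4, a regulator of poly(A) tails (2.25), rose. Of the 20 tested genes of the progenitor list, 7 fell and 0 rose (median log2 fold change -0.44). MSI2 (-1.85) and MSI1 (-1.28), translational regulators of stem cells, and PTBP1, the repressor of neuronal exons (-1.13), fell. The call of MSI2 ended without the unnumbered N library (edgeR adjusted p = 0.0678), that of MSI1 without aRG library 2 or the unnumbered N library (edgeR adjusted p of 0.0893 to 0.395) and that of PTBP1 without the unnumbered N library (edgeR adjusted p = 0.0724). The number of progenitor RNA-binding falls was 2 without the unnumbered N library and was 3 without N library 1.

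For 20 pairs of related genes with a neuronal and a broadly expressed or progenitor member, the neuronal member rose in 12 and fell in 0 (0 at an unadjusted p under 0.05 and 0 by DESeq2). The broad member fell in 2 pairs and rose in 4, and by edgeR 0 pairs had both a called fall of the broad member and a called rise of the neuronal one. At an unadjusted p under 0.05 there were 3 such pairs, DESeq2 called 1 and limma 2, and edgeR called 2 when only N and aRG were fitted and 1 without bRG library 3. For the 2 falls, PTBP1 and SS18, the partners PTBP2 (log2 fold change 0.69 at an edgeR adjusted p = 0.163) and SS18L1 (log2 fold change 0.46 at an edgeR adjusted p = 0.183) were not called. The call of SS18 ended without N library 1 (edgeR adjusted p = 0.134). In the BAF chromatin remodelling complex, whose actin-like and PHD finger subunits are known to be exchanged in neurons, ACTL6B measured 212 and 175 CPM in N and 30.2, 31.5, 8.43 and 12.7 CPM in aRG (edgeR adjusted p = 0.00011 for a log2 fold change of 3.24, SE 0.496). Its progenitor counterpart ACTL6A measured 26.6 and 46.0 CPM in N and 33.2, 37.0, 36.4 and 80.5 CPM in aRG and was not called (edgeR adjusted p = 0.646 for a log2 fold change of -0.37, SE 0.463). DPF1 rose (2.70), and its counterpart PHF10 was not called (log2 fold change -0.78 at an edgeR adjusted p = 0.145). The same form, a rise of the neuronal member beside a broad member that was not called, was seen for SNAP25 with SNAP23 (log2 fold change -0.07 at an edgeR adjusted p = 0.944), the chloride transporter SLC12A5 (2.53) with SLC12A2 (log2 fold change -0.35 at an edgeR adjusted p = 0.424), and the vesicle coat gene AP3B2 (2.53) with AP3B1 (log2 fold change -0.39 at an edgeR adjusted p = 0.433). In 4 pairs both members rose, among them RBFOX2 with RBFOX3, CELF1 with CELF4 and KIF3B with KIF3C. Of these, the calls of CELF1 (1.02) and KIF3B (1.29) ended without either N library (edgeR adjusted p of 0.0786 to 0.09) and without aRG library 3 or 4 or N library 1 (edgeR adjusted p of 0.0785 to 0.285) respectively. A beta tubulin of neurons, TUBB3, was not called (log2 fold change 1.28 at an edgeR adjusted p = 0.123). Pairs are related in sequence, and reads that fit both members may have been split in the authors' counting. Of the 26 tested genes of the BAF list as a whole, 3 rose and 1 fell (median log2 fold change 0.16). The rises made up 11.5%, near the 10.4% of all tested genes, and the falls 3.85%, below the 9.37%. SMARCA2, one of its alternative ATPases, rose by 1.27, a call that ended without N library 1 (edgeR adjusted p = 0.0822). The number of BAF falls was 0 without N library 1.

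**Figure D4:**
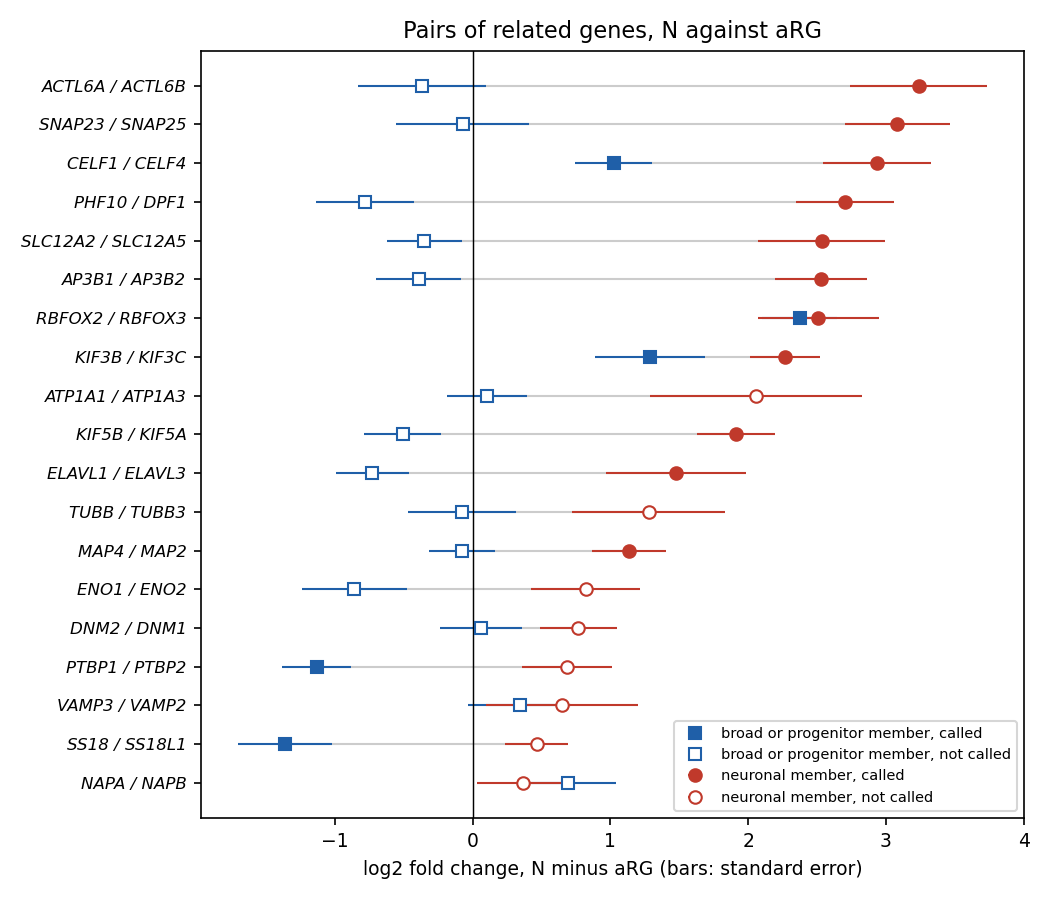
Log2 fold change of N minus aRG with its standard error for the broad or progenitor member (squares) and the neuronal member (circles) of 19 of the 20 pairs, filled where edgeR called the gene. Over all 20 pairs the neuronal member was called higher in 12 and the broad member lower in 2.

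Genes of general metabolism differed by list. Of the 44 tested genes of the ribosomal protein list, 0 rose and 0 fell (median log2 fold change -0.16), and of the 33 tested genes of the oxidative phosphorylation list, 0 rose and 0 fell (median log2 fold change 0.19), both with no call in either direction against 19.8% of all tested genes called. Of the 20 tested genes of the cholesterol synthesis list, 3 rose and 0 fell (median log2 fold change 0.57), with LSS (1.22) and MVD (1.75), enzymes of the pathway, among the rises. HMGCS1, an early enzyme, rose by 1.12, a call that ended without aRG library 2 or 4 or either N library (edgeR adjusted p of 0.0705 to 0.176). Of the 22 tested genes of the glycolysis list, 3 rose and 3 fell (median log2 fold change -0.25). Each made up 13.6%, near the 10.4% of all tested genes that rose and the 9.37% that fell. SLC2A1, the glucose transporter GLUT1, fell, at 38.4 and 65.7 CPM in N and 172, 286, 360.1 and 382 CPM in aRG (edgeR adjusted p = 0.000668 for a log2 fold change of -2.53, SE 0.468). PFKFB3 (1.57) and PFKM (1.16), which regulate and carry out the committed step, and HK1 (1.01), which traps glucose, were higher, with calls that ended without N library 1 (edgeR adjusted p = 0.466), without the unnumbered N library (edgeR adjusted p = 0.255) and without N library 1 (edgeR adjusted p = 0.204) respectively. GAPDH (-1.14) and the lactate transporter SLC16A1 (-1.68) were lower, with calls that both ended without either N library (edgeR adjusted p of 0.0841 to 0.192). The number of glycolysis rises was 1 without N library 1. The number of glycolysis falls was 1 without either N library. The number of oxidative phosphorylation rises was 1 without aRG library 4.

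Stress genes were read from a pair of lists. Of the 19 tested genes of the immediate early and heat shock list, 3 fell and 0 rose (median log2 fold change -0.22), against the 9.37% of all tested genes that fell. EGR1, an immediate early factor, measured 2.08 and 1.96 CPM in N and 19.0, 19.0, 31.6 and 17.7 CPM in aRG (log2 fold change -3.43 at an edgeR adjusted p = 0.000582), and HSPB1, a small heat shock protein, 41.7 and 46.1 CPM in N and 233, 191, 228 and 351 CPM in aRG (log2 fold change -2.51 at an edgeR adjusted p = 7.25e-06). EGR3 was the third fall (-3.33), with 4 counts in the neuron libraries, and its call ended without the unnumbered N library (edgeR adjusted p = 0.199). Of the 16 tested genes of the unfolded protein response list, 1 rose and 1 fell (median log2 fold change -0.51). The rise was VLDLR, which is also a reelin receptor of migrating neurons (log2 fold change 2.06 at an edgeR adjusted p = 0.00124), and the fall TRIB3 (-1.89), a call that ended without either N library (edgeR adjusted p of 0.0975 to 0.105). The number of stress rises was 1 without aRG library 3. The number of unfolded protein response falls was 0 without N library 1 and was 2 without aRG library 2.

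Markers of other cells an organoid can hold gave more falls than rises in N where they were called, and most were not called. For choroid plexus and cortical hem, of 19 tested genes, 10 fell and 0 rose (median log2 fold change -3.07), and the summed level was 292 to 489 CPM in N and 1909 to 8188 CPM in aRG. TTR, the carrier of thyroid hormone made by choroid plexus, measured 70.2 and 289 CPM in N and 5049, 1541, 7626 and 3834 CPM in aRG (edgeR adjusted p = 0.000783 for a log2 fold change of -4.65, SE 0.876), and OTX2, a choroid plexus factor, 0.245 and 0.187 CPM in N and 58.9, 23.7, 75.2 and 33.6 CPM in aRG (log2 fold change -7.72 at an edgeR adjusted p = 8.38e-07). TTR alone made up most of the summed level in each aRG library. BMP7 (-4.85) and LMX1A (-3.58) of the hem fell too. The number of choroid plexus and hem falls was 6 without N library 1. For mesenchyme, of 17 tested genes, 6 fell and 0 rose (median log2 fold change -1.46), with a summed level of 68.4 to 112 CPM in N and 209 to 441 CPM in aRG. PDGFRB (-3.33), COL3A1 (-3.83) and COL1A2 (-3.59) were among the falls, and PDGFRA fell by 2.19, a call that ended without either N library (edgeR adjusted p of 0.0659 to 0.12). The number of mesenchyme rises was 1 without aRG library 3. The number of mesenchyme falls was 3 without N library 1. The part that these cells took in the falls of Wnt and matrix genes was not tested.

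For the GABAergic and ventral telencephalic list, of 21 tested genes, 6 fell and 0 rose (median log2 fold change -1.46), with a summed level of 141 CPM in both N libraries and 568 to 656 CPM in aRG. VIP, too low to be tested, had 0 counts in the N libraries and 7 in the aRG libraries together. MEIS2 (-2.18), a factor that cortical progenitors also express, NPY (-7.08) and CALB1 (-5.40) fell, and ERBB4 (-3.60), a neuregulin receptor of interneurons, did too. MEIS2 alone made up most of each summed level, at 89.2 and 72.3 CPM in N and 429, 338, 313 and 384.5 CPM in aRG. For Cajal-Retzius neurons, which secrete reelin early at the cortical surface, of 12 tested genes, 4 fell and 1 rose (median log2 fold change -1.82), and the summed level overlapped, at 221 to 255 CPM in N and 195 to 281 CPM in aRG. CALB2, a calcium buffer of several neuron types, measured 149 and 137 CPM in N and 19.5, 8.42, 3.35 and 5.05 CPM in aRG (edgeR adjusted p = 7.51e-05 for a log2 fold change of 4.01, SE 0.591), while CXCR4, a chemokine receptor (-4.62), and ZIC5 (-4.54), a zinc finger factor, fell. The number of Cajal-Retzius rises was 2 without aRG library 1. For oligodendrocytes, astrocytes and microglia, of 15 tested genes, 2 fell and 0 rose (median log2 fold change -1.23), with a summed level of 76.9 to 80.8 CPM in N and 113 to 145 CPM in aRG. The microglial gene CD68, too low to be tested, had 0 counts in the N libraries and 1 in the aRG libraries together. GFAP, an astrocyte filament also found in radial glia, was 1 of the falls (log2 fold change -2.39 at an edgeR adjusted p = 0.0019) and PDGFRA the other. The number of glial falls was 1 without the unnumbered N library. For hindbrain, spinal cord and neural crest, of 15 tested genes, 0 rose and 0 fell (median log2 fold change -0.88), and the summed level was 9.56 to 16.9 CPM in N and 25.2 to 61.2 CPM in aRG.

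The same genes were then read in the libraries labelled basal intermediate progenitors, against which few genes were called. In bIP libraries 1 to 3, MKI67 measured 10.3, 24.2 and 7.46 CPM and TBR1 335, 375 and 236 CPM. EOMES measured 98.2, 127 and 31.0 CPM there, against 427, 320, 460 and 260 CPM in bRG libraries 1 to 4. The summed level of the Cajal-Retzius list was 1429 to 3744 CPM in bIP and 255 and 221 CPM in N. In N against bIP 0.113% of 16804 tested genes were called (19, all lower in N), and of 224 genes named by the rule for this comparison 7 were. None of the 12 largest rises and 12 largest falls was among them. PLXND1 measured 263 ± 7.36 CPM in N and 152 ± 37.5 in bIP (log2 fold change 0.79, edgeR adjusted p = 0.623), GRIA2 1727 ± 160.0 CPM in N and 1146 ± 245 in bIP (log2 fold change 0.59, edgeR adjusted p = 0.888) and RUNX1T1 1705 ± 109 CPM in N and 831 ± 148 in bIP (log2 fold change 1.04, edgeR adjusted p = 0.719). All 12 of the largest rises had a higher mean in N than in bIP, with adjusted p values of 0.29 or more. The 7 calls were EOMES, TFAP2C, OTX2, FAT1, EPHA3, DACH1 and CXCR4. FAT1 measured 12.3 ± 0.788 CPM in N and 129 ± 48.0 in bIP (log2 fold change -3.38, edgeR adjusted p = 0.0035), EPHA3 14.5 ± 3.69 CPM in N and 157 ± 68.4 in bIP (log2 fold change -3.44, edgeR adjusted p = 0.00297) and EOMES 6.26 ± 0.677 CPM in N and 85.3 ± 49.1 in bIP (log2 fold change -3.77, edgeR adjusted p = 0.0334). The bIP mean was above the N mean in all 7, and for TFAP2C and OTX2 it was itself low, at 3.16 and 5.05 CPM. By edgeR 0 named genes were called without either N library, where 52 (without library 1) and 45 (without the unnumbered library) had an unadjusted p under 0.05, and 5 to 9 named genes were called without 1 bIP library, fewest without bIP library 2. DESeq2 called 23 of the named genes.

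**Figure D5:**
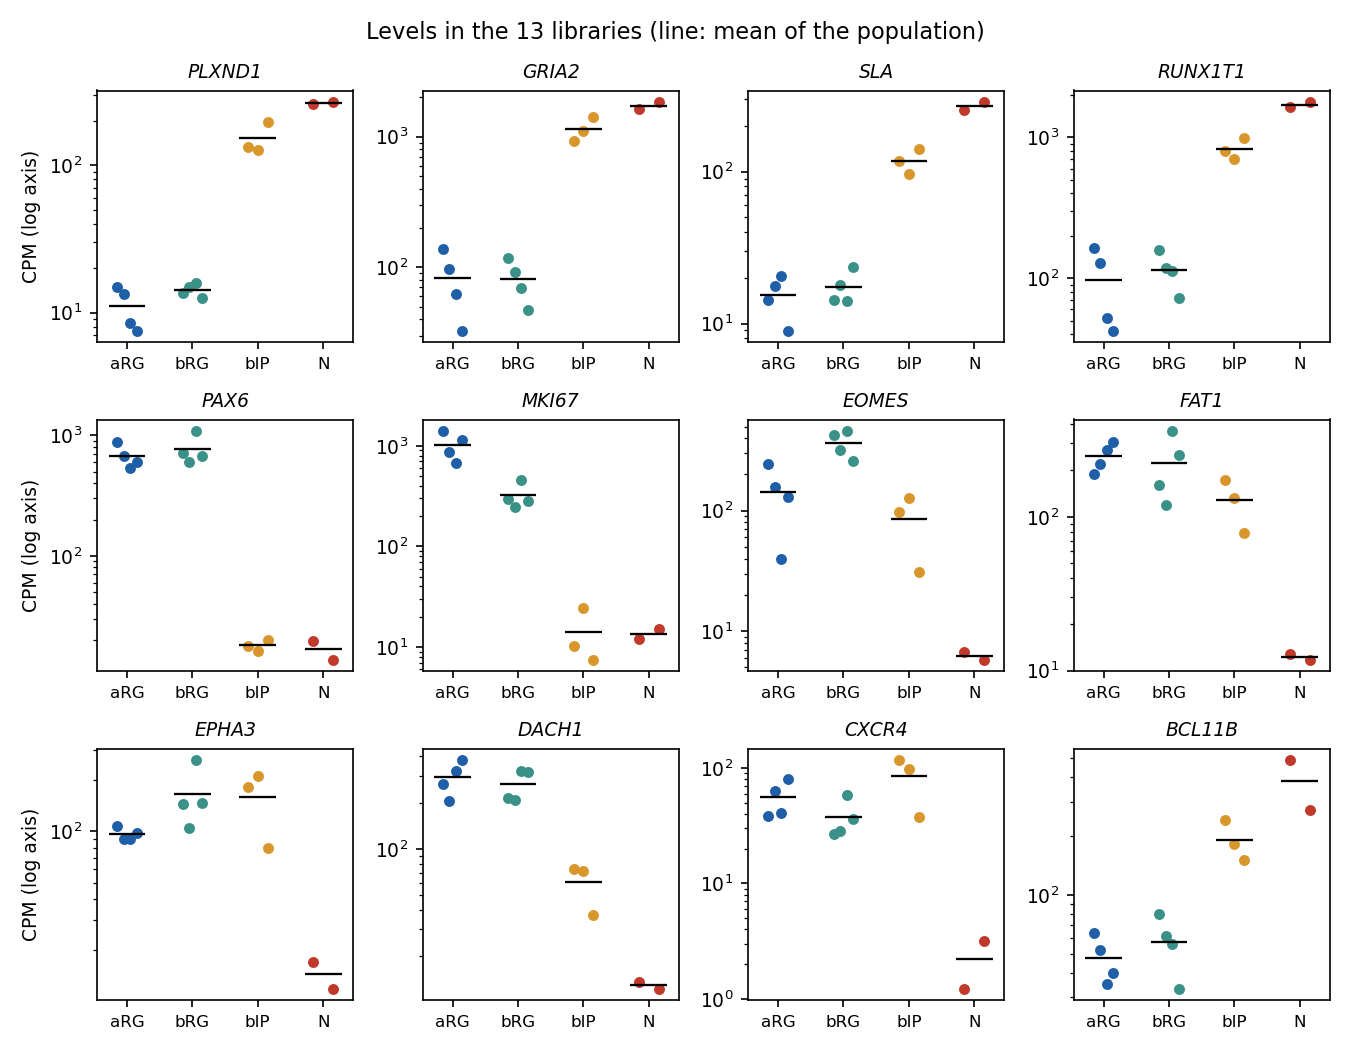
CPM (log axis) in each of the 13 libraries by population, with the mean as a line, for 12 genes. bIP lies near N for PLXND1, GRIA2, PAX6 and MKI67, and above N for EOMES, FAT1, EPHA3, DACH1 and CXCR4.

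X-linked genes can be read only in the second deposited table, on the gorilla build gorGor6. The hg38 table held none of the symbols that RefSeq places on the gorilla X chromosome, and 30 listed genes were absent from it, 27 of them X-linked. In the gorGor6 table, where 4.44% of 38520 tested genes were higher and 4.54% lower in N by edgeR, 28 of the 30 could be tested, and 6 rose and 9 fell. DCX, the microtubule protein of migrating neurons, measured 612 and 548 CPM in N and 86.8, 123, 58.4 and 77.2 CPM in aRG (log2 fold change 2.75, edgeR adjusted p = 1.83e-06), and L1CAM, an axonal adhesion molecule, 174 and 116 CPM in N and 13.1, 28.7, 8.17 and 5.82 CPM in aRG (log2 fold change 3.38, edgeR adjusted p = 3.69e-05). The AMPA receptor subunit GRIA3 (2.55) and the synaptic vesicle protein SYP (2.49) rose too. KIF4A, a mitotic kinesin, measured 1.85 and 0.405 CPM in N and 103, 56.4, 44.4 and 116 CPM in aRG (log2 fold change -6.17, edgeR adjusted p = 6.1e-06), with both neuron libraries far below every aRG library. The basement membrane collagens COL4A5 (-5.29) and COL4A6 (-4.71), the splicing factor MBNL3 (-3.75) and HTR2C, a serotonin receptor abundant in choroid plexus (-7.38), fell. SYN1, related to SYN2, was not called (2.46, edgeR adjusted p = 0.0751). Over all X-linked genes, 42 of 607 tested rose and 55 fell.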

How the data were processed

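RNA of 10000 sorted cells per library was amplified with the Smart-seq2 protocol in 12 to 17 PCR cycles, without molecular identifiers, per the labels' protocols. The authors deposited 2 tables of raw counts per gene symbol, neither of them normalised: 1 on hg38, used here, and 1 whose name gives gorGor6, used for X-linked genes and as an alternative. Per the submitters' processing notes the aligner STAR and the build hg38 were used, with no version or step attached. How reads were assigned to genes, with which annotation and strand setting, is not given in the sources used here. Overlapping and antisense genes, and near-identical copies, are therefore uncertain. A blank row held 0.0035% to 0.0077% of the gorGor6 counts and was left out.

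All 13 libraries entered 1 edgeR 4.0.16 quasi-likelihood fit (R 4.3.3) with TMM scaling and a mean per population, over the 16804 genes that passed filterByExpr (minimum count 10). Fitting all libraries lets 2 neuron libraries share the spread of the others. Calls are Benjamini-Hochberg adjusted p under 0.05. A standard error is the fold change divided by the root of its F statistic. Levels are CPM, counts relative to library size, after TMM scaling, with mean ± SD, and were compared between libraries, not between genes. PCR copies are not independent molecules, so counting error understates the uncertainty. No 2 libraries of N or of aRG agree within sampling noise (chi-square of 18.7 or more per degree of freedom), and each was kept as a replicate.

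Genes were named by a rule: the 12 largest rises and falls that were called, had no overlap and averaged 4 or more in log2 CPM, identity genes, up to 3 genes per list and direction with the smallest p, and all pair members. Other members were added after their values were seen. Genes, lists and pairs were chosen with earlier results of these data known. Alternatives were DESeq2 1.42.0, limma 3.58.1 with library weights, other scaling and filters, the gorGor6 table, subsets and single removals of libraries, and a replicate block. The fit was tested on simulated data. Gene positions and sequences were not analysed here. Some genes that the naming rule selects, and 1 pair in the plot of pairs, are not reported here.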

Additional observations from a re-analysis of the deposited data

Results flagged for a closer look

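Within the 4 aRG libraries, 1 library stood far from the other 3 in 21 of 279 values examined, by the gap to its nearest neighbour as a share of the range (Dixon's test at the 95% level). Chance alone puts about 1 in 20 groups past this value. The library was aRG library 4 in 9 cases, 2 in 5, 1 in 4 and 3 in 3. In aRG library 4, ACTL6A was high at 80.5 CPM (the other 3 at 33.2 to 37.0), KIFC1 was high at 227 CPM (the other 3 at 106 to 118), PBK was high at 223 CPM (the other 3 at 69.2 to 77.4), PFKM was high at 104 CPM (the other 3 at 69.7 to 73.0), TJP1 was high at 159 CPM (the other 3 at 128 to 132), TROAP was high at 1001 CPM (the other 3 at 471 to 543) and WIF1 was high at 29.0 CPM (the other 3 at 8.85 to 11.6). In aRG library 4, PLXNA4 was low at 29.9 CPM (the other 3 at 55.8 to 58.2) and SEMA4A was low at 7.73 CPM (the other 3 at 20.8 to 21.5). In aRG library 2, CDK6 was high at 62.2 CPM (the other 3 at 30.7 to 35.6), UNC13A was high at 47.4 CPM (the other 3 at 10.7 to 14.5) and UNC79 was high at 34.1 CPM (the other 3 at 14.4 to 15.8). In aRG library 2, AP3B1 was low at 68.9 CPM (the other 3 at 92.5 to 96.1) and RSPO2 was low at 15.0 CPM (the other 3 at 57.1 to 59.4). In aRG library 1, CNTNAP2 was high at 375 CPM (the other 3 at 149 to 176), ITGA9 was high at 12.3 CPM (the other 3 at 5.14 to 6.03), PIF1 was high at 881 CPM (the other 3 at 550.1 to 558) and TCF7L1 was high at 315 CPM (the other 3 at 184 to 206). In aRG library 3, EGR1 was high at 31.6 CPM (the other 3 at 17.7 to 19.0). In aRG library 3, GAS1 was low at 43.8 CPM (the other 3 at 67.2 to 71.7) and ID4 was low at 312 CPM (the other 3 at 473 to 499). Of these values, those of KIFC1, PBK and TROAP in aRG library 4 belong to genes of cell division, whose summed level was also highest there. The direction of the difference from N was the same without any 1 of the aRG libraries for each of these genes that was called.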

How the results depend on the processing

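The call count of 3320 (1745 higher and 1575 lower in N) was 4089 by DESeq2 (1911 higher, 2178 lower), 4593 by limma with library weights, 3286 with DESeq2 size factors in edgeR, 3288 without the low-count filter, 3456 in the gorGor6 table (1709 higher, 1747 lower), 4012 in a fit of N and aRG alone (2003 higher, 2009 lower), 4470 without bRG library 3 and 2640 with only aRG libraries 3 and 4. With only aRG libraries 1 and 2 it was 2181 (955 higher, 1226 lower), and 1515 (619 higher, 896 lower) when changes were tested against a log2 size of 1. Single removals gave 1903 to 3003 calls, 1001 to 1559 higher and 902 to 1485 lower, with 1313 higher and 1472 lower without aRG library 4, and the fewest came without 1 of the 2 neuron libraries. N and aRG share 1 usable replicate number, so the replicate block left out the unnumbered N library. With the block 1988 genes were called (1012 higher, 976 lower), against 1903 without that library and no block, and whether numbers mark shared cultures is not given. The calls of FOXP2, GRIN1, GRM5, NEUROD4, NTN1, TNR and WNT8B were not made with the block (edgeR adjusted p of 0.0523 to 0.0992), though they were made in each of the 6 single removals. Pairs with the broad member lower and the neuronal member higher numbered 0 by edgeR, 1 by DESeq2, 2 by limma, 2 with N and aRG alone and 1 without bRG library 3. Named genes called in N against bIP numbered 7 by edgeR, 23 by DESeq2 and 0 to 9 in single removals. HES5, CCND1, PTBP1, ACTL6B, DVL1, SHANK1 and TEAD2 had 0 counts in the gorGor6 table, so their direction was not compared there. No gene named in the report and called in N against aRG on hg38 changed direction in any alternative that tested it. MYH11 and ANKRD36B, picked out because they did, were called in opposite directions in the hg38 and gorGor6 tables. Of the called genes, 676 rises and 691 falls were called in all 15 alternatives on the hg38 table. The precision is limited by 2 neuron libraries and by depths of 5884697 to 12524938 counts, at which genes with a few counts in N, such as OTX2 and EGR3, have wide errors.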

Other observations

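Genes called in both tables had the same direction with 2 exceptions. MYH11, a smooth muscle myosin, had a log2 fold change of 1.11 in the hg38 table (edgeR adjusted p = 0.0157, 42341 counts in the libraries) and -3.03 in the gorGor6 table (edgeR adjusted p = 0.000385, 3086 counts). ANKRD36B, an ankyrin repeat gene with near-identical copies, had 1.00 (edgeR adjusted p = 0.0492) and -6.95 (edgeR adjusted p = 1.05e-06). These genes were picked out after their values were seen, and why the tables differ was not tested.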
